A study of Saccharomyces cerevisiae with 9 samples.

Results

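The regions described here are stretches of early coding sequence in a synthetic pool of Saccharomyces cerevisiae RNAs, each made of a 5′ leader, a start codon and the first coding bases of 1 open reading frame (ORF). A stretch comprised bases 16 to 45 after the start codon, which are codons 7 to 16 when the start codon is codon 1. The stretch was read from wild-type RNAs with a leader of 40 to 90 nt, in the longest such leader of each ORF, and the constant 3′ end of 20 nt was left out. The table held 5762 pool RNAs, of which 4383 were complete wild-type RNAs of 2370 ORFs. Of these, 1814 RNAs had a leader of the required length, and they gave 1330 stretches, 1 per ORF. The leaders of these 1330 RNAs had a median of 62 nt with quartiles of 50 and 75 nt. By their systematic names 1267 ORFs (95.3%) lie on the Watson strand and 63 on the Crick strand, and 1298 were matched to a gene symbol. No stretch was identical to another. Positions are counted from the start codon, since the table gives no genome coordinates.

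The study probed the RNA structure of the pool with dimethyl sulphate (DMS), which methylates unpaired A and C, and the marks were read out after reverse transcription. All RNA was transcribed by T7 RNA polymerase and heated to 95 °C for 2 min. By the labels the 9 libraries form 3 groups of 3 replicates, namely refolded RNA incubated at 30 °C for 2 min with DMS, RNA given DMS in the denatured state, and refolded RNA incubated in the same way without DMS. DMS reactivity was not analysed here, because the columns of values carry a replicate number and no condition, so no group enters a comparison and every value below is a property of the sequence or of a structure predicted from it. No cells were probed. A stretch held 15.7 ± 3.22 A and C bases (SD, n = 1330, range 6 to 27), the bases that DMS can report on.

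A ribosome in yeast is recruited at the capped 5′ end, its small subunit scans the leader, and initiation begins at the first start codon in a suitable context. Structure in the leader and close to the start codon is known to lower initiation in yeast. Codons further into the coding sequence enter the ribosome only after the subunits have joined. The early codons also encode the N terminus of the protein, where signal peptides for the secretory pathway and presequences for mitochondrial import lie.

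Each whole RNA was folded with ViennaRNA at 30 °C, and summing a base's pair probabilities and subtracting them from 1 gave its chance of being unpaired. The value of a stretch is the mean over its 30 bases, and it runs from 0, all bases predicted to be paired, to 1, all predicted to be open. The 8 stretches with the highest such unpaired probability among ORFs with a gene symbol are shown first, because they display the sequence that goes with a predicted open region. Capitals mark bases with an unpaired probability of at least 0.5.
PCL7: TCAAAAAAAACCACAACATCGCCAATAAAT
ADK2: CAAATAACACATCTACTCAAACcTcTtcGA
YBR085C-A: AAACAAagcaCAAATTTTACTCATTCTACC
TRM44: gCACATATTTCTAAAAACAATCAAAATCAA
PUB1: gaACAACATCAACAACAACAACAACAgCaa
PBP2: AAACCATCAATCACTActacACCAACTACT
GAT2: TacccCTTCTCTCAAACACAgcCACAAgcA
TEA1: CCAAACAAGAAGTAAAAAAACCAcaCAgtT

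PCL7, a cyclin partner of the Pho85 kinase, had the highest value, 0.947, and all 30 of its bases were at or above 0.5. It held 17 A and 1 G. The mitochondrial adenylate kinase gene ADK2 had 0.855 with 12 A and 1 G, and the small ORF YBR085C-A had 0.839 with 13 A and 1 G. TRM44, which encodes a tRNA methyltransferase, had 0.837, and PUB1, which encodes a poly(U)-binding protein, had 0.835. PUB1 had 18 A and 2 G in a repeat of CAA codons for glutamine. PBP2, an RNA-binding protein gene, had 0.808 and was the only one of the 8 without any G. GAT2 and TEA1, both transcription factor genes, had 0.778 and 0.746. The TEA1 stretch holds 1 replaced ATG, as defined below. These 8 stretches held 0 to 3 G each, or 0% to 10% of their bases, against a mean of 20.9% G over all stretches.

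The 8 stretches with the lowest value among ORFs with a symbol follow, with the same use of capitals.
YTA7: aatagacgCggtagcgacgttgaagaGTcA
RPS21A: caAttagtagtttcgagaaatctATAagat
PRS5: gttgtttttggAGGGgactcgcaccccgaG
HOR7: gttgtttccgccgtcgccTTcaCtggttTA
PDE1: actatacttggGgccAAGtgaggaCccacc
DIP2: CgTtttgaGcaagcAgctgcttttggtgta
CNE1: ttAgtgtggctgttTTTGaatCtagcgttg
PEP5: aggCaattccaGcttttcGAgaatattccC

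YTA7, a chromatin-bound AAA ATPase gene, had the lowest value, 0.140, with 4 bases at or above 0.5. Nearly all of its predicted pairing, 99.9%, was with the GGG and leader of its RNA. RPS21A, a ribosomal protein gene, had 0.158, with 62.0% of the pairing to later coding bases and 30.3% within the stretch. PRS5, which encodes a phosphoribosyl pyrophosphate synthetase, and HOR7, a small ORF of the osmotic response, both had 0.184. PDE1, a cyclic AMP phosphodiesterase gene, had 0.197, and 69.2% of its pairing was with the constant 3′ end that every RNA of the pool carries. DIP2, which encodes a component of the small-subunit processome, had 0.204, CNE1, the calnexin gene, had 0.208, and PEP5, a vacuolar sorting gene, had 0.222. YTA7, RPS21A, PDE1 and CNE1 each hold 1 replaced ATG, as defined below, and their values are those of the RNA as given. These 8 differed in where they paired. The leader held most of the pairing in YTA7, PRS5, DIP2 and CNE1, the later coding bases in RPS21A, HOR7 and PEP5, and the constant end in PDE1.

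The label of the regions as coding sequence was checked by reading the 10 codons of each stretch. The table spells ATG only at the start codon. None of the 1330 RNAs holds another ATG, and a lower-case agt was read here as a replaced ATG, which the labels do not state. As given, 159 stretches (12%, 95% Wilson interval 10.3 to 13.8) held a stop codon in frame. After each agt was read as ATG again, 19 (1.43%, 0.916 to 2.22) did. Read 1 base further on, 645 stretches (48.5%) held a stop, and read 2 bases further on, 703 (52.9%) did. A stop also stood in 594 (44.7%) of the upstream leader windows of the same RNAs (the 30 bases from 40 to 11 before the start codon), read from their first base. Read in frame and after restoring, 1.43% of stretches held a stop, far fewer than in either shifted frame. Intervals of shares of ORFs cover counting error over ORFs only.

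Including codons 2 to 6, 21 RNAs held an in-frame stop after the ATGs were restored. These ORFs were picked out after their values were seen. They include the ribosomal protein genes RPS21A, RPL35A, RPS24A, RPL22B, RPL30, RPL26B and RPS30A, the splicing factor genes MUD1, SMD2 and YSF3, the cap-binding complex gene STO1, the ribosome-associated TMA20, and OST5, QCR10, DCN1, PSP2, ARP9, YIP3, CRS5, SPT14 and MRA1. Many of these are known to carry an intron near the start of the gene, and yeast introns begin with a conserved GTATGT. That motif, which contains an ATG and so was searched after restoring, on the sense strand only and in bases 1 to 45, was found in 13 of the 21 (61.9%, 40.9 to 79.2) and in 14 of the 1309 other RNAs (1.07%, 0.638 to 1.79). Over all 1330 RNAs it was found in 27 (2.03%). In 4 of the 21 the motif lay inside the stretch, and those are shown after restoring, with the motif in capitals.
RPS21A: caattaGTATGTtcgagaaatctataagat
RPL26B: gGTATGTttggaggatacgaataacgatag
STO1: agaggagGTATGTtttaaaaccaatgtttt
MRA1: ctgttgaatacagctGTATGTtaagggata

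In RPS21A the first in-frame stop after restoring was codon 15, in RPL26B codon 14, in STO1 codon 12 and in MRA1 codon 14. All 4 stops lay downstream of the motif. RPS21A is also among the 8 stretches with the lowest unpaired probability. Without the RNAs that hold a stop or GTATGT, 1295 stretches remained, and their mean unpaired probability was 0.437, against 0.436 over all 1330.

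The replaced ATGs themselves altered many stretches. A whole agt in place of ATG lay in 504 of 1330 stretches (37.9%, 35.3 to 40.5). Of these, 402 stretches held 1, 89 held 2 and 13 held 3, the most found. OAF1, an oleate-responsive transcription factor gene, is the first by systematic name of the 13, and its replaced ATGs are in capitals.
OAF1: cagaaggccccacAGTccggaaAGTAGTat

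Of the 619 replaced ATGs, 182 (29.4%, 25.9 to 33.1) were in frame with the start codon and so were methionine codons. A further 345 (55.7%, 51.8 to 59.6) began 1 base after a codon's first base, and 92 (14.9%, 12.3 to 17.9) began 2 bases after it. The share of RNAs with a replaced ATG in bases 1 to 15, a window of lesser length, was 14.5%. The replacement changed 1043 codons in 563 stretches, counting those that an agt reaching over the edge of the stretch touched. All 1043 then encoded another residue or a stop, which the genetic code fixes for any such replacement. A stop was made in 168 of them (16.1%, 14.0 to 18.5), and 1 stop was lost. In 67 of the 168 a tyrosine codon TAT became TAG. In 41 a glutamate codon GAA became TAA, and in 28 the glutamate codon GAG became TAG. Glycine GGA became TGA in 17, and aspartate GAT became TAG in 15. The intervals for replaced ATGs and for changed codons count these units and not ORFs. Several can lie in 1 stretch, so they are not independent. Residues below were therefore read after restoring, while bases, codon letters and structures are those of the table unless stated.

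By base composition the stretches held 31.2 ± 10.1% A, 21 ± 7.79% C, 20.9 ± 7.60% G and 26.9 ± 9.95% U (SD, n = 1330). The upstream leader window of the same RNAs held 38.8 ± 11.7% A, 17.8 ± 8.02% C, 16.8 ± 7.87% G and 26.6 ± 10.5% U. The stretches were thus poorer in A and richer in C and G, and nearly equal in U. Bases 1 to 15 after the start codon, with 32.5% A, and bases 46 to 60, with 31.1% A, were close to the stretch. The codon frame showed in the bases as given. G made up 25.3% of the first, 15.7% of the second and 21.8% of the third codon positions (SE 0.409, 0.349 and 0.377), and C was most frequent at the second position, with 24.5%. U made up 23.5% of the first, 27.8% of the second and 29.3% of the third positions. A differed less, with 32.4%, 32.0% and 29.2%. Reading agt for ATG moves G and U between codon positions and leaves A and C in place. The shares by codon position were not computed after restoring.

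After restoring, and over the 1309 ORFs without an in-frame stop, leucine was the most frequent residue of codons 7 to 16, with 10.5% of codons, against 8.30% (SE 0.343) in codons 2 to 6 of the same ORFs. Serine made up 9.36% of codons 7 to 16, against 13.8% (SE 0.423) in codons 2 to 6. Alanine made up 6.75%, against 5.84% (SE 0.293), and cysteine 1.38%, against 0.749% (SE 0.114). Lysine, with 7.43% against 7.12%, and arginine, with 5.7% against 5.47%, differed by less than the standard error of the earlier codons. Methionine, read from the replaced ATGs, made up 1.34%, against 1.05% in codons 2 to 6. Among codons that no replaced ATG touched, the lysine codons AAA, with 545, and AAG, with 434, were seen most often, followed by GAA for glutamate, with 383. As given, the table held 565 AAG, of which 131 were made by the replacement.

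Over all stretches the unpaired probability was 0.436 ± 0.105 (SD, n = 1330), with a median of 0.427. Values between 0.3 and 0.5 held most of them, with 427 stretches from 0.3 to 0.4 and 472 from 0.4 to 0.5. Only 6 stretches (0.451%) were below 0.2, and 16 (1.2%) were at or above 0.7. The 16 most open stretches held 45% A and 11.5% G, and the 6 most paired ones 21.7% A and 25.6% G.

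The upstream leader window of the same RNAs had 0.50 ± 0.126. The stretch was lower by a mean difference of -0.0636 (SE 0.00441, SD 0.161), was lower in 890 RNAs and higher in 440. The mean difference exceeded its standard error over ORFs many times, but it was smaller than the spread between ORFs, as the overlap of the histograms of both windows shows. The difference remained within each base. A bases of the stretch averaged 0.575, against 0.630 for A of the upstream window, and C bases 0.386, against 0.426. G bases averaged 0.288, against 0.331, and U bases 0.379, against 0.420. The 4 differences by base ran from -0.0549 for A to -0.0392 for C (SE 0.00623 to 0.00699). ORFs are not replicates of a condition, so these errors describe the set of RNAs, and no p-value is given.

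**Figure D1:**
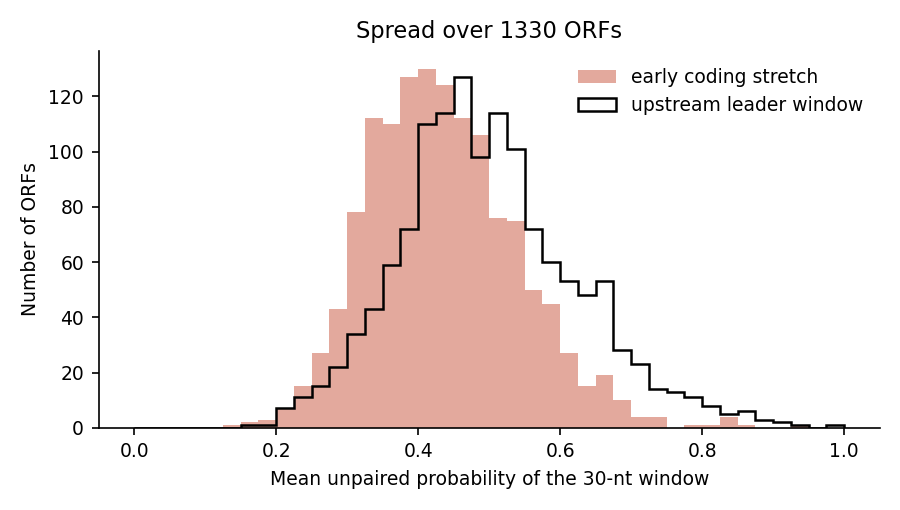
The histograms show the mean unpaired probability of the early coding stretch (filled) and of the upstream leader window (line) over 1330 ORFs, in bins of equal width. The stretch centres on 0.436 and the leader window on 0.50, and both ranges overlap over most of their width.

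Within the coding part the differences between window means were small. Bases 1 to 15 averaged 0.447 ± 0.142, and the stretch minus these was -0.0112 (SE 0.00481), higher in 642 RNAs and lower in 688. Single bases of that window differed more. Their means ran from 0.344 (SE 0.00947) at base 1, below the stretch, to 0.486 (SE 0.0102) at base 11, above it. Bases 46 to 60 averaged 0.441 ± 0.148, and the stretch minus these was -0.00537 (SE 0.00486), about as large as its error, higher in 665 RNAs and lower in 665. Across the stretch the highest base mean was 0.459 (SE 0.0103) at base 17, in codon 7, and the lowest 0.415 (SE 0.0103) at base 41, in codon 15. Codon means ran from 0.425 at codon 15 to 0.451 at codon 7, with standard errors near 0.008. The plot of openness by position shows the leader above the coding part on average, and no step at either end of the stretch. Single bases overlapped, with 0.458 at base 40 before the start codon and 0.486 at base 11 after it.

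**Figure D2:**
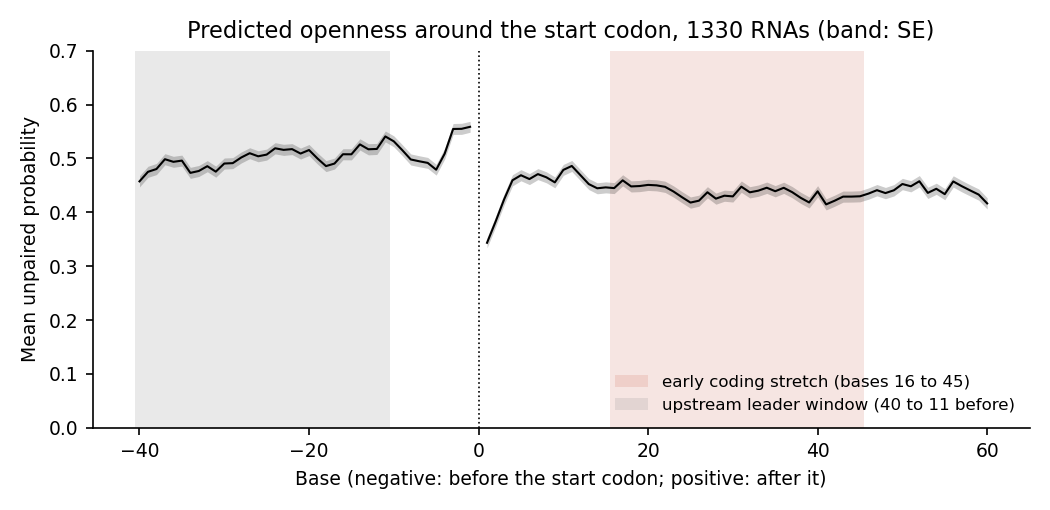
The line gives the mean unpaired probability of each base (y axis) by its position before or after the start codon (x axis), over 1330 RNAs, with a band of 1 SE. The shaded stretch varies between 0.415 and 0.459, and the shaded leader window lies higher on average; the start codon itself is not drawn.

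The value of a stretch told little about its neighbours. Across ORFs, which share the pool design but no library here, Pearson's r between the stretch and the upstream window was 0.0377, with bases 1 to 15 it was 0.0177, and with bases 46 to 60 it was 0.0505 (n = 1330 each). The correlation with leader length was -0.00806. Composition went further. The correlation with A content was 0.414, with G content -0.343, with U content -0.250, with GC content -0.191 and with C content 0.117. The 452 stretches with at least 36.7% A averaged 0.485 ± 0.111, and the 371 with at most 23.3% A averaged 0.397 ± 0.0942. For U the order was opposite, with 0.408 ± 0.0928 in the 382 stretches with at least 33.3% U and 0.476 ± 0.112 in the 406 with at most 20% U. The bases counted here also enter the folding energies, so these relations describe the predictions.

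Runs of 1 base were rare. A run of at least 6 A stood in 37 stretches (2.78%), and these averaged 0.534 ± 0.127, against 0.433 ± 0.103 for the others. A run of at least 6 U stood in 20, with 0.452 ± 0.123. A run of at least 4 G stood in 38, with 0.397 ± 0.104, and one of at least 4 C in 58, with 0.467 ± 0.126. The longest run was 9 U.

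Codon position made no difference that exceeded its error by much. The mean was 0.438 at the first codon position, 0.435 at the second and 0.435 at the third. The third minus the first position was -0.00352 (SE 0.00305), higher in 632 stretches and lower in 698, and the third minus the second was -2.57e-05 (SE 0.00277), higher in 673 and lower in 657. The identity of the base mattered more at each position. A averaged 0.590, 0.569 and 0.591 at the first, the second and the third position, and G averaged 0.284, 0.296 and 0.292. C lay between, at 0.396, 0.376 and 0.399, as did U, at 0.389, 0.375 and 0.383.

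Synonymous codons could be compared where they differ in the last base alone. Codons made by the ATG replacement were left out here, since they are not codons of the gene. They were 131 of the 565 AAG, 134 of the 351 GAG and 49 of the 256 CAG. In all 13 pairs of an A-ending and a G-ending codon for the same residue the A-ending codon had the higher mean over its bases, by 0.0109 to 0.206 with a median of 0.149. For lysine, AAA averaged 0.739 ± 0.264 (SD, n = 545) and AAG 0.534 ± 0.271 (n = 434). For glutamine, CAA averaged 0.619 (n = 373) and CAG 0.424 (n = 207). For glutamate, GAA averaged 0.501 (n = 383) and GAG 0.352 (n = 217). The smallest gap was that of the glycine codons GGA, with 0.275, and GGG, with 0.264. At the last base alone the A-ending codon was higher in 13 of 13 pairs, by a median of 0.307. Over the first 2 bases alone, which both codons share, the A-ending codon was higher in 9 of 13 pairs, with a median difference of 0.0629 and a range of -0.0256 to 0.122. Pairs that end in U or C showed no such order. The U-ending codon was higher over the whole codon in 7 of 16 pairs, with a median difference of -0.000804. With the codons made by the replacement counted as well, these numbers of pairs were the same, and the median difference of the A-ending codon over the whole codon was 0.159. Codons of 1 stretch share an RNA and are not independent.

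The pair probabilities were split by the place of the partner. Bases of the stretch itself took 29.7% of the pairing (SE 0.747) while making up 16.5% of the RNA. Later coding bases, taken as all bases from base 46 to the end of the insert, took 26.6% (SE 0.707), close to their 26.5% of the bases. They include the last 12 nt of the insert, which differed in all 2013 pairs of RNAs of 1 ORF. Not all of them are therefore sequence of the gene. The GGG and leader took 21.2% (SE 0.715), less than their 36.1% of the bases. Coding bases 1 to 15 took 12.8% and made up 8.24%, the constant 3′ end took 7.70% and made up 11%, and the start codon took 1.91% and made up 1.65%. The partner with the greatest share was the stretch itself in 460 RNAs, the later coding bases in 358, the leader in 300, bases 1 to 15 in 127 and the constant end in 85. In 52 RNAs more than 50% of the pairing was with the constant end, which is a part of the pool design and not of the gene. In PCL7 the constant end took 56.6% of the little pairing there was.

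**Figure D3:**
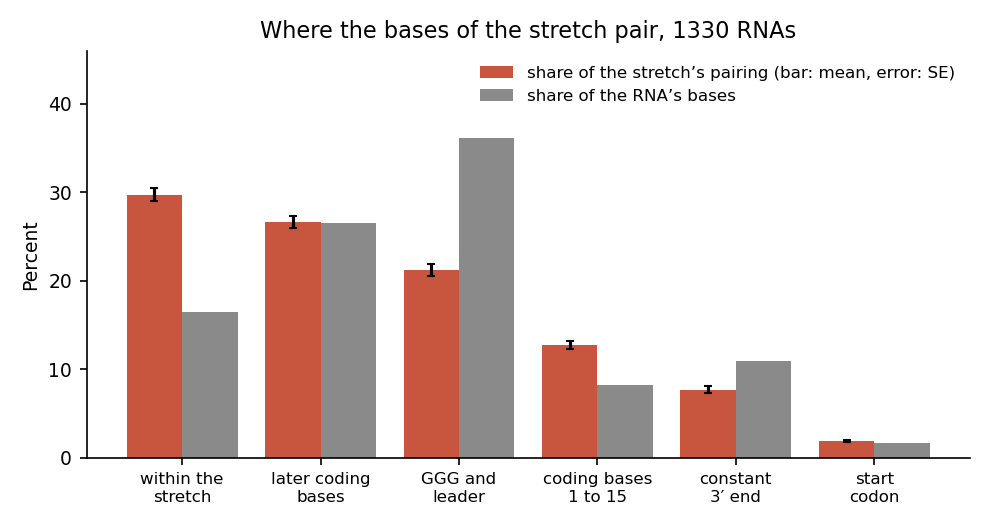
Bars give the mean share of a stretch's predicted pairing by the place of the partner (colour, with SE over 1330 RNAs) beside the share of the RNA's bases that lie there (grey), in percent. The stretch pairs with itself more than its share of bases, 29.7% against 16.5%, and with the leader less, 21.2% against 36.1%.

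All RNAs have 182 bases, so a longer leader leaves fewer later coding bases. From leaders of 40 to 49 nt through 50 to 59, 60 to 69 and 70 to 79 to leaders of 80 to 90 nt, the share of pairing with GGG and leader was 17.9%, 19.9%, 22.6%, 22.3% and 25.2%. The share with later coding bases was 33.7%, 27.3%, 24.5%, 24.3% and 20.3%. The unpaired probability was 0.436, 0.436, 0.446, 0.432 and 0.430 in the same bins of 325, 290, 249, 243 and 223 ORFs, with SDs of 0.101 to 0.110, so it did not follow the leader length. At the edges of the rule, wild-type RNAs with leaders of 40 and 41 nt averaged 0.446 (n = 57) and 0.420 (n = 60), and those just outside, at 39 and 38 nt, 0.428 (n = 51) and 0.446 (n = 49). Leaders of 89 and 90 nt averaged 0.450 (n = 21) and 0.445 (n = 15), and those of 91 and 92 nt 0.421 (n = 24) and 0.441 (n = 24).

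Folded alone, without the rest of the RNA, a stretch had a minimum free energy of -3.70 ± 2.66 kcal/mol (SD, n = 1330), and 105 stretches (7.89%) formed no pair. The 6 stretches with the lowest energy, named after their values were seen, are shown with their paired bases in capitals, because they hold hairpins that need no other part of the RNA.
NUP60: aGGAGGGCTAGcgctaCTGtGCCTTCCgct
CFD1: ggcGTTCCTGCgGcctcttTgGCAGGAATa
UBX5: gacgaaTTTAGTGCCAtcacTGGCGCTGAG
VIR1: CAGTCACCactGGTGACTGcagcctcgcgg
CPP1: tacGGCGgaacCGCCGGCgagaagaGCCaa
YOR316C-A: aactcacccaCGGCCGccaaCGGCCGctta

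NUP60, a nuclear pore gene, had -15.19 kcal/mol and 10 pairs. CFD1, an iron-sulphur cluster assembly gene, had -13.86 kcal/mol, UBX5 -13.52 kcal/mol, and VIR1, a gene of the mRNA methylation complex, -12.93 kcal/mol. CPP1 and YOR316C-A had -12.74 and -12.73 kcal/mol. In the whole RNA 68.6% to 98.4% of the pairing of these 6 stayed within the stretch, most in YOR316C-A and least in VIR1. A strong hairpin did not make the most paired stretch. YOR316C-A had an unpaired probability of 0.596 and CPP1 0.480, both above the mean of all stretches, and UBX5 had 0.223 and VIR1 0.227.

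For 889 ORFs the same stretch was also present in an RNA with a shorter wild-type leader, of any length. The leaders differed by a median of 31 nt (range 11 to 88), and the RNA with the shorter leader carried more later coding sequence in exchange. The stretch averaged 0.436 ± 0.104 in the longer-leader RNA and 0.444 ± 0.109 in the shorter-leader RNA. The mean difference, longer minus shorter, was -0.00771 (SE 0.00283, SD 0.0844), with 420 stretches higher and 469 lower in the longer-leader RNA. With pairs at most 50 nt apart it was -0.00118 (SE 0.00209), and folded without the constant end -0.00282 (SE 0.00267), so the mean was not apart from 0 under these settings. Single stretches moved more. The median absolute difference was 0.0422, and 183 stretches (20.6%) moved by over 0.1. Pearson's r between both RNAs was 0.688 (n = 889), over RNAs that share the stretch and its flanks.

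The partners moved more than the openness did. GGG and leader took 22.2% of the stretch's pairing in the longer-leader RNA and 12.1% in the shorter-leader RNA, a mean difference of 10.02 percentage points (SE 0.820), higher in 615 and lower in 274. Later coding bases took 25.7% in the longer-leader RNA and 35.3% in the shorter-leader RNA, a difference of -9.64 points (SE 0.968). Pairing within the stretch was 29.0% and 29.5%, a difference of -0.498 points (SE 0.725), below its error.

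The 3 ORFs with the greatest difference each way are shown as they stand in the longer-leader RNA, with capitals again for bases at or above 0.5. The first 3 were more open there, the last 3 more paired.
FRM2: TActtAAACgctATTACAAACCGTCgtaCC
PET191: GATCAGAAGAAggcTGtcgCTATagTTttG
BUD22: gtCTCTATCTACAAgcttgatcAGttGGAg
YBR071W: aattccagCactaaCACAAAcgCAgaCAcc
TPA1: gaagTTAAAggtgaGaaggAgagaaattcc
THR1: ATTAAAgttccagCttcttccgccaatAtc

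FRM2, a nitroreductase-like gene, had 0.698 with a leader of 77 nt and 0.371 with one of 28 nt. PET191, a cytochrome c oxidase assembly gene, had 0.567 with 74 nt and 0.273 with 40 nt. BUD22, a ribosome biogenesis gene, had 0.527 with 47 nt and 0.263 with 8 nt, and 96.1% of its pairing was with the leader in the longer RNA. In the opposite direction the uncharacterised ORF YBR071W had 0.415 with a leader of 71 nt and 0.717 with one of 52 nt. TPA1, which encodes a prolyl hydroxylase, had 0.283 with 81 nt and 0.558 with 17 nt. Its leader took 58.5% of the pairing in the longer RNA and 0.904% in the shorter one. THR1, the homoserine kinase gene, had 0.286 with 44 nt and 0.558 with 29 nt, yet its leader took 0.530% and 3.71%, and 69.7% of its pairing in the longer RNA was with later coding bases.

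**Figure D4:**
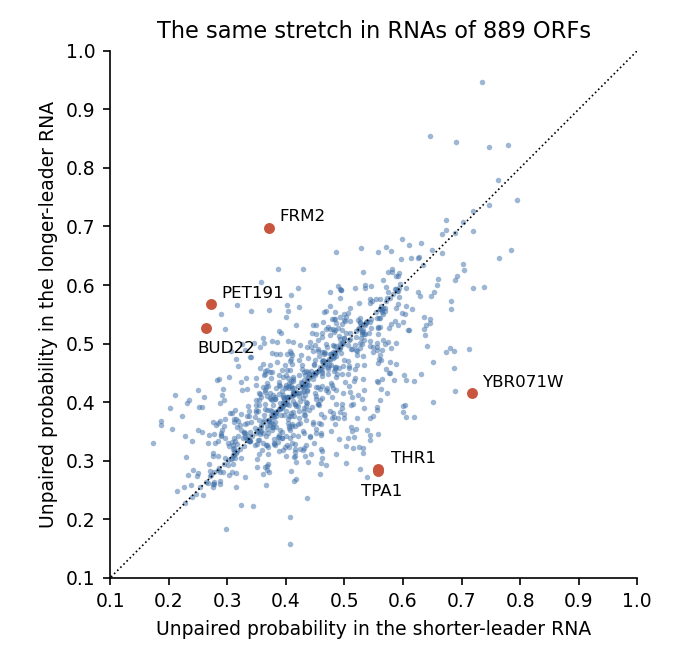
Each point is 1 of 889 ORFs, with the unpaired probability of its stretch in the longer-leader RNA (y axis) against that of the same stretch in the shorter-leader RNA (x axis), and the dotted line marks equal values. The named ORFs have the greatest differences, with FRM2 at 0.698 and 0.371 on one side and YBR071W at 0.415 and 0.717 on the other.

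The bases at the end of the inserts, which are counted among the later coding bases above, varied between RNAs of 1 ORF. In 2013 of 2013 pairs of wild-type RNAs of 1 ORF the coding bases differed only within the last 12 nt of the insert of the longer-leader RNA. The stretch lies clear of these in every RNA, as base 54 is the last one outside at a leader of 90 nt. For bases 46 to 60 this holds in 1213 of the 1330 ORFs.

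Stretches of 6 gene groups were set against all other ORFs. The clearest group by sequence was that of secretory and cell wall proteins listed as having a signal peptide. Such N-terminal peptides direct proteins into the endoplasmic reticulum by a hydrophobic core. Hydrophobic codons in the group were thus partly fixed by the choice of genes. Of the 72 genes of this group 16 had a stretch. Codons for hydrophobic residues numbered 7.31 ± 1.49 of 10 in the group and 3.69 ± 1.73 in other ORFs (SD), and all 16 were above the median of 4 over all ORFs. Lysine and arginine numbered 0.125 per stretch, against 1.32 in other ORFs, with no arginine in any of the 16. Aspartate and glutamate numbered 0, against 1.01. Hydrophobic residues were alanine, isoleucine, leucine, methionine, phenylalanine, valine, tryptophan and cysteine. Codons for most of these have U in the second position, but those for alanine, tryptophan and cysteine do not. Read after restoring, U made up 45.6 ± 13.1% of second codon positions, against 28.2 ± 15.5% in other ORFs, and its link to the residues was not tested. Over all positions U made up 41 ± 9.48%, against 26.7 ± 9.83%, above the median of all ORFs in 15 of 16, and A made up 16.7 ± 9.35%, against 31.4 ± 9.98%. The stretches of 4 members are shown as the table gives them, with U (written T) at the second codon position in capitals. In CNE1 the codon GTG was made by the replacement and is TGG after restoring.
TIR1: gcttTatTcgctgctaTtgctgcttTggct
LHS1: cTttTatTttTaacagcttTtgTtgctaTa
CNE1: tTagTgtggcTgtTttTgaatcTagcgtTg
SED1: cTatTatctgccggttTagcctcgactact

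In TIR1, a cell wall mannoprotein gene, all 10 codons encoded hydrophobic residues, and in LHS1, a chaperone of the endoplasmic reticulum, and in CNE1 9 did. SED1, a cell wall protein gene, had 5, the lowest count of the group, shared with PRC1. Although the group was poor in A, its unpaired probability was 0.441 ± 0.118, against 0.436 ± 0.105 in other ORFs, a difference of 0.00526 (SE 0.0296) that turned negative under 3 of 7 alternatives. Its lowest member was CNE1, with 0.208, and its highest was PST1, another cell wall protein gene, with 0.675. C made up 24.2% of the group's bases, against 20.9%, and G 18.1%, against 21%.

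The mitochondrial matrix and inner membrane proteins were listed as having a presequence, an N-terminal amphipathic helix rich in basic and hydroxylated residues. Such residues were thus partly fixed by the choice of genes. The 15 of 59 listed genes with a stretch held 3.13 ± 1.30 codons for serine and threonine, against 1.53 ± 1.25 in other ORFs, and all 15 were above the median. Arginine numbered 1.27 ± 0.704, against 0.562 ± 0.804, while lysine numbered 0.733, against 0.736. Aspartate and glutamate together numbered 0.0667, against 1.01, from a single codon in ABF2. C made up 26.2 ± 6.02% of the bases, against 20.9 ± 7.79%. The unpaired probability was 0.414 ± 0.0769, against 0.436 ± 0.106, with 8 of 15 above the median of all ORFs and a difference of -0.0225 (SE 0.0201) that was 0.00657 (SE 0.0218) with pairs at most 50 nt apart. ARG8, an arginine biosynthesis gene with 7 serine and threonine codons, was highest at 0.516, and LAT1, a subunit of pyruvate dehydrogenase, was lowest at 0.266.

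Mitochondrial ribosomal proteins are imported by the same route. Their 19 stretches, of 67 genes, held 1.32 ± 0.885 arginine codons, against 0.559 ± 0.800 in other ORFs, and 0.158 ± 0.375 aspartate and glutamate codons, against 1.01 ± 1.11. Lysine was less frequent, with 0.421 ± 0.607, against 0.741 ± 0.882. Lysine and arginine together numbered 1.74 ± 0.933, against 1.30 ± 1.16. Serine and threonine, with 1.42, against 1.55, were not more frequent. The unpaired probability was 0.401 ± 0.110, against 0.437 ± 0.105, a difference of -0.0351 (SE 0.0255) with 7 of 19 above the median of all ORFs. Folded without the constant end the difference was -0.0109 (SE 0.0268), and with pairs at most 50 nt apart it was -0.0201 (SE 0.0217), both below their errors. MRPL28 was highest at 0.623, and MRP51 lowest at 0.259.

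Cytosolic ribosomal proteins gave 17 stretches, of 138 genes, 7 of which belong to the 21 RNAs with an in-frame stop, so that their residues are not those of the proteins. Their GC content was 35.1 ± 8.51%, against 42.0 ± 8.87% in other ORFs, with 1 of 17 above the median of all ORFs. The 7 with a stop had 30.5 ± 8.48%, while the 10 without one had 38.3 ± 7.24%, against 42.1 ± 8.86% in other ORFs without a stop, a difference of -3.73 points (SE 2.30). In the 10 without a stop A made up 34.3 ± 8.32%, against 31.2 ± 10.1% in other ORFs without a stop. That difference was 3.12 points (SE 2.65). Over all 17, A made up 35.7 ± 9.98%, against 31.2 ± 10.1%. The unpaired probability was 0.418 ± 0.120, against 0.436 ± 0.105, a difference of -0.0182 (SE 0.0292) that was 0.0079 (SE 0.0309) with pairs at most 50 nt apart, and the members spread widely, from RPS21A with 0.158 to RPS30A with 0.660. Both of these extremes are among the RNAs with an in-frame stop. Among the others the lowest was RPP2B, a stalk protein gene, with 0.273, and the highest was RPS10B, with 0.517.

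Aminoacyl-tRNA synthetases, with 10 stretches of 33 genes, had 0.412 ± 0.0993, against 0.436 ± 0.105 in other ORFs, a difference of -0.0245 (SE 0.0315). With pairs at most 50 nt apart it was -0.0448 (SE 0.0220), and with the shortest leader -0.0115 (SE 0.0273). CDC60, the cytosolic leucyl-tRNA synthetase gene, was highest at 0.608, and MSE1, a mitochondrial glutamyl-tRNA synthetase gene, was lowest at 0.258. Glycolysis had only 3 stretches of 17 genes. They were GLK1, a glucokinase gene, with 0.537, HXK2, a hexokinase gene, with 0.467, and TDH1, a glyceraldehyde-3-phosphate dehydrogenase gene, with 0.324. Their mean of 0.443 differed from that of other ORFs by 0.00672 (SE 0.0628). For all 6 groups the difference in unpaired probability was smaller than the SD between ORFs. Larger than the SD were the differences of the secretory group in hydrophobic codons, U, U at the second codon position, A, and lysine with arginine. So was that of the presequence group in serine and threonine. Glycolysis, with only 3 stretches, also passed this mark in U, by -10.2 points, and in lysine with arginine, by 1.36 codons. The groups were chosen by function, the secretory and presequence groups also by their N-terminal signal, and no test was made of them.

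**Figure D5:**
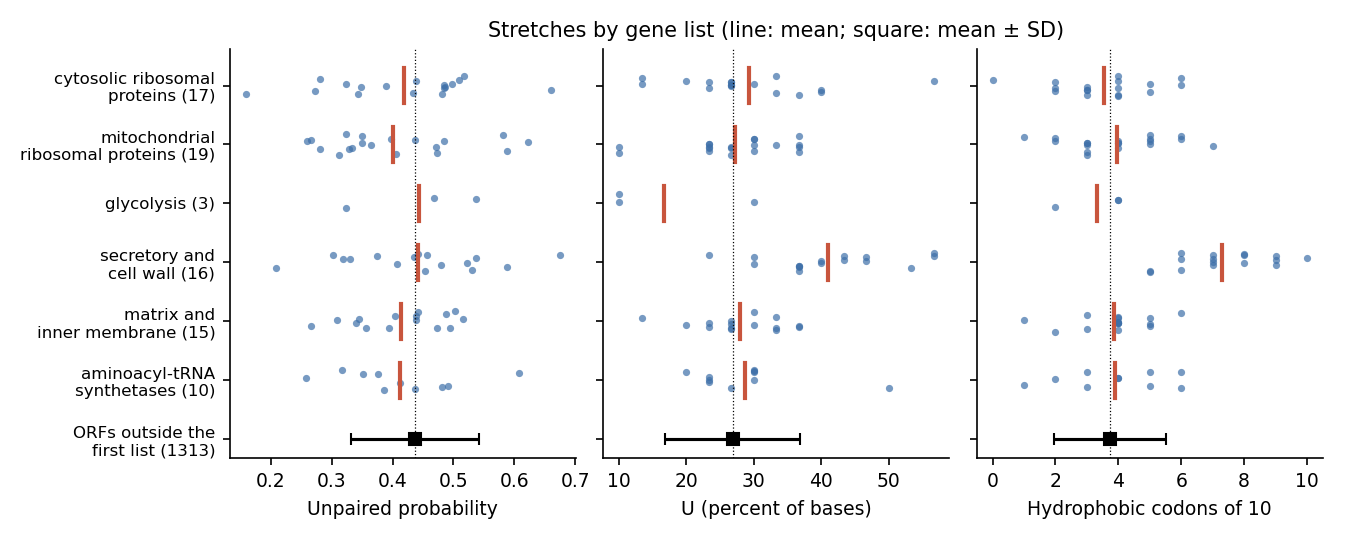
Each point is 1 stretch, with the gene groups in rows, the number of stretches in parentheses, and from left to right the unpaired probability, the share of U in percent of bases and the number of codons for hydrophobic residues among 10. The coloured line is the group's mean and the square with bar the mean ± SD of the 1313 ORFs that are not cytosolic ribosomal proteins; the secretory group stands apart in U, with a mean of 41%, and in hydrophobic codons, with 7.31, and not in unpaired probability, with 0.441.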

How the data were processed

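RNA was transcribed from a synthetic pool and reverse-transcribed with TGIRT-III, per the labels' protocols. The submitters' processing notes list STAR and SAMtools, with neither a version nor a role. No genome build is given in the sources used here. The authors deposited 1 table with the reference base of every position of each RNA, and only the bases and RNA names were used. The 6 columns of values were not used, since their names give a replicate number shared by 3 samples and no condition, and the depth of the libraries is not given here. The bases were joined per RNA. Symbols came from RefSeq's gene table of assembly R64.

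Whole RNAs were folded with ViennaRNA 2.7.2 at 30 °C, a prediction without reactivity, salt or protein. Windows were compared within RNAs and gene lists with all other ORFs, with SDs and SEs over ORFs and Wilson intervals (scipy) for shares. No p-values were computed. The calculations were tested on simulated RNAs, and 14 of 14 checks passed. The stretches and gene lists were chosen with earlier results of these data known. Among ORFs with a symbol the text names the 8 highest and 8 lowest stretches, the highest and lowest of each list, the 3 greatest differences each way between leaders, and the first stretch by systematic name with the most replaced ATGs; other genes were named after their values were seen. Alternatives were 37 °C, restored ATGs, no constant end, pairs at most 50 nt apart, the shortest leader and Watson-strand ORFs, and, chosen after seeing the data, codons that no replaced ATG touches, RNAs without stops or GTATGT and RNAs whose later bases lie clear of the insert's end.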

Additional observations from a re-analysis of the deposited data

How the results depend on the processing

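The alternatives without stops or GTATGT and without bases near the insert's end, the codon pairs without codons made by the replacement and the ribosomal protein group without stops were chosen after seeing the data. Of 27 results, 23 had no turned sign under any of their alternatives, 137 in all over the 27, and 4 did. The 27 include means and shares, such as the base shares by codon position, which have no sign that could turn. The count of 23 is therefore no measure of robustness, and all 4 results that turned were differences. The mean unpaired probability of the stretch ran from 0.435 to 0.480, its difference from the leader window from -0.0697 to -0.0581, and the share of pairing within the stretch from 29.3% to 37.4%. The difference from bases 1 to 15 ran from -0.0146 to -0.0072, from bases 46 to 60 from -0.0122 to -0.000253, and between longer and shorter leaders from -0.00843 to -0.00118. List minus other ORFs ran from -0.0313 to 0.0079 for cytosolic and from -0.0367 to -0.0109 for mitochondrial ribosomal proteins, from 0.00624 to 0.047 for glycolysis, from -0.0108 to 0.0155 for the secretory group, from -0.03 to 0.00657 for the presequence group and from -0.0448 to -0.0115 for aminoacyl-tRNA synthetases.

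Each value with a turned sign was smaller than its standard error under that alternative, and the cause was not tested. With the ATGs restored the third minus the second codon position was 0.00146, and the secretory group minus other ORFs was -0.00205. Without the constant end the third minus the second codon position was 0.000279. With pairs at most 50 nt apart the cytosolic ribosomal group gave 0.0079, the secretory group -0.00142 and the presequence group 0.00657. With the shortest leader the secretory group gave -0.0108. The share with a replaced ATG was 14.5% in bases 1 to 15, a window with fewer bases.

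No paired analysis was possible because no library's values were used, and for the same reason no replicate was left out. The alternative that keeps only ORFs whose codons match the RefSeq protein was not run, since no protein table was used here. The main limits are that all structures are predicted, that ORFs share the pool's design, that nearly all ORFs are on the Watson strand and that replaced ATGs alter 563 stretches.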
